A study of Mus musculus with 9 samples.

Results

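The complement genes described here are C1qa, C1qb, C1qc, C3, C3ar1, C5ar1 and Cfp, 7 of the 54532 genes in a table of RNA sequencing read counts, taken by name from the gene symbols of the table's Ensembl IDs. All 7 had enough reads to be tested, with 184 reads in the lowest library for the lowest of them (C1qa) and 20273 in the highest for Cfp. The cells were osteoclasts, which resorb bone, grown from total mouse bone marrow. Non-adherent cells were taken after a night in macrophage colony-stimulating factor (M-CSF) at 5 ng/ml and cultured with M-CSF at 20 ng/ml and RANKL, the cytokine that drives osteoclast formation, at 10 ng/ml until RNA was taken on day 3. There were 3 groups of 3 libraries. WT_CTR carried the genotype label WT and was left unstimulated. KO_CTR carried the label Acod1 KO, a deficiency in the enzyme that makes itaconate, and was left unstimulated. KO_4OI carried the same Acod1 KO label and received an ester of itaconate that enters cells, 4-octyl-itaconate (4-OI), at 50 µM on day 1. No group joined the WT label with 4-OI, so KO_4OI against WT_CTR differs in both label and treatment. The sources used here do not give strain, age, sex, the deleted part of Acod1 or whether each replicate came from its own mouse. P-values therefore set group differences against the spread among libraries, estimated over all 3 groups. Some of the 3 libraries of a group may be technical replicates.

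Complement is a set of plasma proteins and cell receptors that tags particles for uptake and calls in phagocytes. C1q, built from the products of C1qa, C1qb and C1qc, recognises antibody complexes and dying cells and starts the classical pathway, and tissue macrophages are a main source of it. All pathways meet at C3, whose cleavage coats a target and frees the small peptide bound by the receptor C3ar1. Cleavage of C5 frees the peptide bound by C5ar1, and properdin, the product of Cfp, stabilises the convertase of the alternative pathway. Osteoclasts come from the same myeloid precursors as macrophages and can respond to these peptides.

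The libraries held 24830149 to 35143629 counted reads, and tests ran over 14264 genes. Acod1 reads were not lower under the Acod1 KO label (24, 27 and 55 in WT_CTR, 60, 86 and 47 in KO_CTR, 135, 168 and 131 in KO_4OI), so genotype is written here as a label. Xist, which is transcribed from the inactive X chromosome, had 10715 reads in WT_CTR replicate 2, 8764 in KO_4OI replicate 3 and 0 in the other 7 libraries. KO_CTR replicate 2 lay apart on the second principal component of all tested genes (-57.1, against -14.3 to 37.4 in the other 8), which took 19.2% of the variance. All 10 osteoclast markers were detected in every group at 1 CPM or more, among them Acp5 and Ctsk, with a summed level of 24274 to 25616 CPM in WT_CTR, 27396 to 33791 in KO_CTR and 8939 to 11309 in KO_4OI. All 13 macrophage and monocyte markers were at 1 CPM or more in each group too, at 2901 to 3426, 3665 to 4920 and 3174 to 3603 CPM in sum. Stromal and fibroblast markers were near 0, with a sum of at most 6.58 CPM, 6 to 8 of the 8 genes under 1 CPM in each group and Lum without a read in any library.

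The level in every library is given as CPM, the read count scaled to a common library size by the trimmed mean of M-values (TMM). Compared per kilobase of exon, Cfp had the highest level of the 7 in each group, at 288 ± 41.4 CPM per kb in WT_CTR, 297 ± 47.3 in KO_CTR and 396 ± 29.2 in KO_4OI (SD, n = 3), with no library in the range of the next gene. C3 had the lowest mean, at 8.28 ± 1.5, 14.5 ± 5.32 and 7.84 ± 0.518 CPM per kb. Its libraries lay below those of the next gene in WT_CTR only, and overlapped with C3ar1 in KO_CTR and with C1qa in KO_4OI. In WT_CTR the 5 genes between them ran in the order C1qb, C5ar1, C1qa, C3ar1 and C1qc, from 47.7 to 17.3 CPM per kb, and each overlapped its neighbour in this order. In KO_CTR C1qb stood second at 102 CPM per kb, above every library of C1qa. In KO_4OI C5ar1 stood second at 71.7 CPM per kb, above every library of C1qb, and C1qb and C3ar1 (39.8 and 38.1) lay above every library of C1qc, C1qa and C3. By CPM over all libraries Cfp exceeded 98.3% of the tested genes and C1qa 54.4%.

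**Figure D1:**
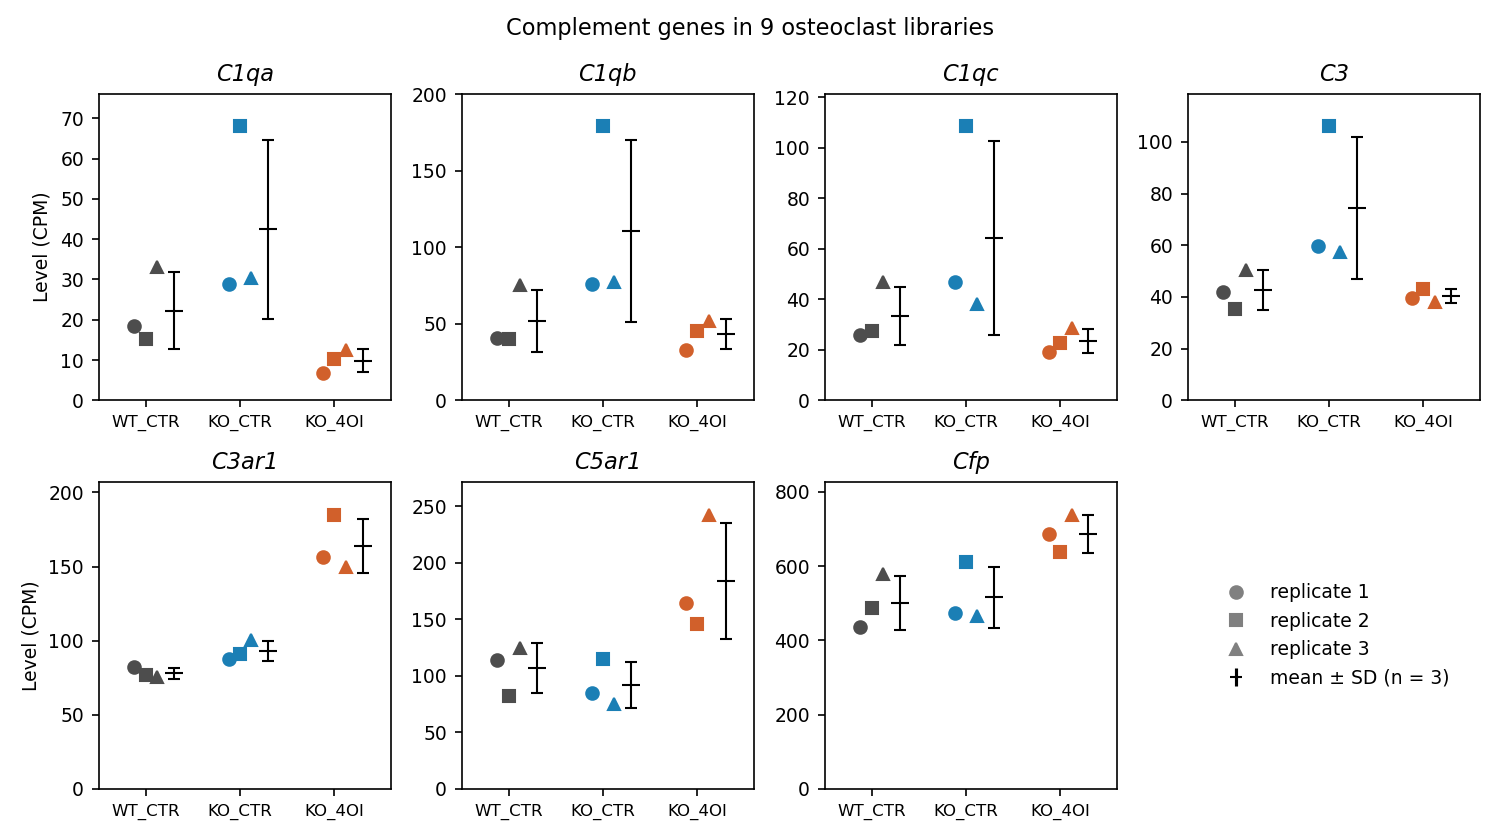
Level in CPM (vertical axes, each from 0) of the 7 complement genes in each library by group; marker shapes give the replicate number and the black bar the mean with its SD (n = 3). KO_CTR replicate 2 is the highest library for C1qa, C1qb, C1qc and C3, while C3ar1, C5ar1 and Cfp are higher in the KO_4OI libraries than in every other library.

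With 4-OI, the genes of the 3 C1q chains and C3 fell in cells labelled Acod1 KO, and the receptor genes C3ar1 and C5ar1 rose. In KO_4OI against KO_CTR 6 of the 7 genes passed an adjusted p of 0.05 in edgeR's quasi-likelihood test, 4 lower and 2 higher. Over all genes tested 27.3% passed, 14.2% lower and 13.0% higher. All 7 had an unadjusted p under 0.05, where 38.2% of all genes had. Treated and untreated libraries were separate for all 7, as they were for 39.3% of all genes. RNA from a mixed culture does not tell fewer cells of a type from less RNA per cell.

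C1qa, C1qb and C1qc encode the A, B and C chains of C1q and lie side by side on the minus strand of chromosome 4 of mm10. C1qb (ENSMUSG00000036905) spans 136880129 to 136886187, C1qc (ENSMUSG00000036896) 136889804 to 136893065 and C1qa (ENSMUSG00000036887) 136895917 to 136898803, with 3616 and 2851 bases between neighbours. No annotated gene overlaps any of the 3. C1qa was at 28.9, 68.0 and 30.4 CPM in KO_CTR and at 6.75, 10.2 and 12.6 CPM in KO_4OI. Every treated library lay below every untreated one, and KO_CTR replicate 2 was far above its group mates. The treated mean was 9.85 ± 2.92 CPM and the untreated mean 42.4 ± 22.1 CPM (SD, n = 3), a log2 fold change of -2.11 (SE 0.37, adjusted p = 0.000928).

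C1qb was at 75.7, 179 and 77.2 CPM in KO_CTR and at 33.0, 45.2 and 51.8 CPM in KO_4OI (log2 fold change -1.35, SE 0.34, adjusted p = 0.00888). C1qc was at 46.8, 108.5 and 38.0 CPM in KO_CTR and at 19.1, 22.6 and 28.5 CPM in KO_4OI (log2 fold change -1.46, SE 0.35, adjusted p = 0.00719). For both chains the treated libraries lay below the untreated ones, and KO_CTR replicate 2 was again the highest. The size of the fall depended on that library. Without it the log2 fold changes were -1.62 for C1qa, -0.85 for C1qb and -0.89 for C1qc, and all 3 still passed (adjusted p = 0.000149, 0.0108 and 0.00614). The weakest result on leaving out any library in turn was that of C1qb without KO_4OI replicate 1 (adjusted p = 0.0478).

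The promoters of C1qb and C1qc are shown because these neighbouring genes moved together, beside those of C3ar1 and C5ar1, which moved the other way. RefSeq promoters (GRCm38.p6, 250 bases before to 50 after the start) were matched for 6 of the 7 genes, all but C1qa. All 4 printed here lie on the minus strand, at chr4:136886151-136886450 for C1qb, chr4:136892865-136893164 for C1qc, chr6:122856108-122856407 for C3ar1 and chr7:16259289-16259588 for C5ar1, and are read 5′ to 3′. Capitals mark matches on either strand to 6 motifs that were searched. These were the PU.1 core AGGAAGT, which reads ACTTCCT on the other strand, the antioxidant response element TGACNNNGC, the AP-1 site TGANTCA, the interferon response element (GAAA, any 2 bases, GAAA), the E-box CACGTG and the NF-kB site (GGGA, any base, TTTCC).
C1qb: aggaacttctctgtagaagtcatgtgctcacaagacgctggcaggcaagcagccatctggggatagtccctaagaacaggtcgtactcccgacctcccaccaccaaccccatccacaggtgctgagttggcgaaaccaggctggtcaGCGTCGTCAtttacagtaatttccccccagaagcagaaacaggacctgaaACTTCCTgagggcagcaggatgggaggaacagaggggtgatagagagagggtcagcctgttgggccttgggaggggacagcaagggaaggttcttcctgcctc
C1qc: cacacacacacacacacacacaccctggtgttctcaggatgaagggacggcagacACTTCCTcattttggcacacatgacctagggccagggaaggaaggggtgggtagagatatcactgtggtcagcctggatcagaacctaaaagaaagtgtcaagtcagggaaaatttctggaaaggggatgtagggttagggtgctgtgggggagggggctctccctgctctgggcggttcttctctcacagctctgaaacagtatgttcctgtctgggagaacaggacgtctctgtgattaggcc
C3ar1: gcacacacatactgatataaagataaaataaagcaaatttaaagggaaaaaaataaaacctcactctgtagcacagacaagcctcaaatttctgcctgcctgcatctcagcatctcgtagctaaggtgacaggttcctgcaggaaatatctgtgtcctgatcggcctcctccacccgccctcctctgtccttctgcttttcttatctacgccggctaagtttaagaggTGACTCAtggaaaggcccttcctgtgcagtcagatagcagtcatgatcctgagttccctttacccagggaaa
C5ar1: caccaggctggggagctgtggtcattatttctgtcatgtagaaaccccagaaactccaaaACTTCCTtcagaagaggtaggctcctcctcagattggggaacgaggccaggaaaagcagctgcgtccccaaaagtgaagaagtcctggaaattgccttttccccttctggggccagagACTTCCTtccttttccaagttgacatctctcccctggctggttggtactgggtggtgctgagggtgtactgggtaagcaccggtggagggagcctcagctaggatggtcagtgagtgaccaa
PU.1 is a transcription factor of all myeloid cells. Its core was found once in the promoter of C1qb, starting at -53 from the RefSeq start, once in that of C1qc at -195, and at 2 places in that of C5ar1, -190 and -72, each time on the opposite strand. It is in 9.35% of 32817 promoters of the same length. The RefSeq starts of C1qc, C3ar1 and C5ar1 lie inside the annotated gene spans, which begin at 136893065, 122856161 and 16259540 on the minus strand. Both PU.1 matches of C5ar1 therefore lie within its annotated span. C1qb also held the antioxidant motif (at -103, 12.4% of promoters) and C3ar1 the AP-1 motif (at -22, 7.81%), and no matches overlapped. The promoter of Cfp held the antioxidant motif at -90, and that of C3 held none of the 6. The interferon, E-box and NF-kB letters, in 3.43%, 7.15% and 0.411% of promoters, were in none of the 6 windows. A match is a description of these letters, not a site.

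The 3 C1q genes did not keep the same proportions. The ratio of C1qa reads to C1qb reads was 0.451, 0.383 and 0.442 in WT_CTR, 0.382, 0.380 and 0.393 in KO_CTR and 0.204, 0.226 and 0.243 in KO_4OI. The treated libraries lay below all 6 untreated ones, and the ratio was closer among the KO_CTR libraries, the high replicate 2 included, than in any other group. On the log2 scale the ratio was lower by a mean of -0.78 in KO_4OI against KO_CTR and of -0.92 against WT_CTR. An exact two-sided permutation test gave p = 0.1 for each, the smallest that 3 libraries against 3 allow. The ratio of C1qa to C1qc also separated the treated libraries, at 0.354 to 0.452 against 0.551 to 0.8 in the untreated ones (exact p = 0.1 in both comparisons). The ratio of C1qc to C1qb was at 0.5 to 0.578 in KO_4OI and 0.492 to 0.618 in KO_CTR, which overlapped (exact p = 0.6). In WT_CTR it was at 0.623 to 0.695, above every library of KO_CTR and of KO_4OI (exact p = 0.1 each). These ratios do not depend on the scaling of the libraries. The p-values are not adjusted for the 9 comparisons made. How often the ratios of other gene pairs separate the groups was not measured.

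**Figure D2:**
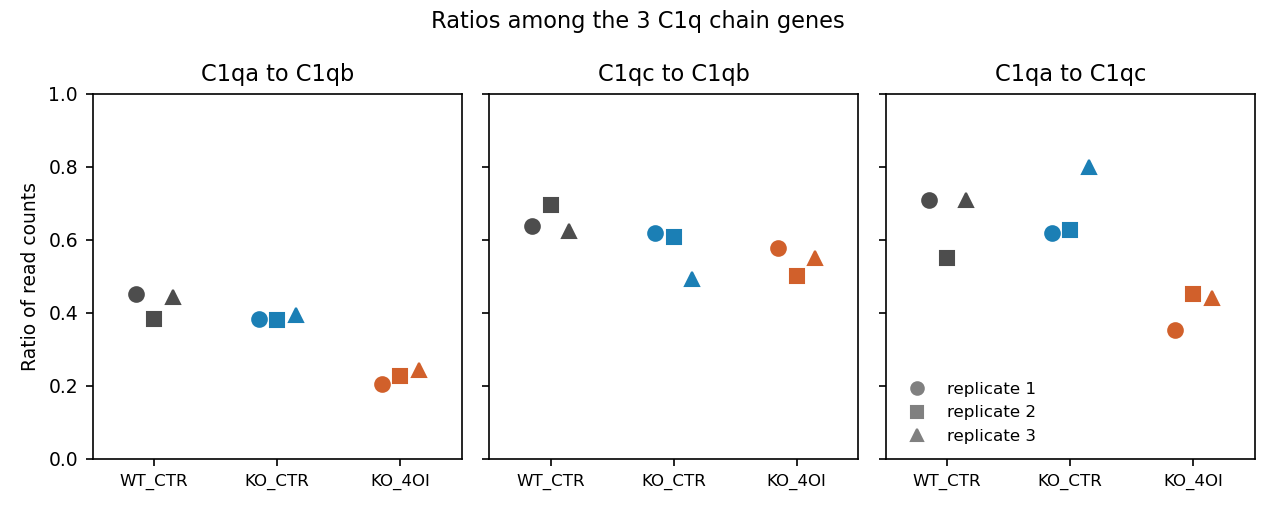
Ratio of read counts (vertical axis, from 0) between pairs of C1q chain genes in each library by group; marker shapes give the replicate number. Both ratios with C1qa above the line lie lower in the 3 KO_4OI libraries than in the 6 untreated ones, and the ratio of C1qc to C1qb overlaps between KO_CTR and KO_4OI.

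C3 (ENSMUSG00000024164, chromosome 17 of mm10, 57203970 to 57228136, minus strand) encodes the protein on which all complement pathways meet. The microRNA gene Mir6978 lies within it on the same strand. C3 was at 59.9, 106 and 57.5 CPM in KO_CTR and at 39.7, 43.2 and 38.0 CPM in KO_4OI. The treated libraries lay close together, and the untreated ones were all higher. C3 fell from 74.5 ± 27.4 to 40.3 ± 2.67 CPM (SD, n = 3), which gave -0.88 on the log2 scale (SE 0.22, adjusted p = 0.0101). Without KO_CTR replicate 2 the log2 fold change was -0.57 (adjusted p = 0.0157).

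C3ar1 and C5ar1 encode the G-protein-coupled receptors for the peptides C3a and C5a. C3ar1 (ENSMUSG00000040552, chromosome 6, 122847138 to 122856161, minus strand) was at 87.7, 90.8 and 100.3 CPM in KO_CTR and at 157, 185 and 149.9 CPM in KO_4OI. The untreated libraries lay close together and the treated ones well above them (log2 fold change 0.82, SE 0.14, adjusted p = 0.000580). C5ar1 (ENSMUSG00000049130, chromosome 7, 16246743 to 16259540, minus strand) was at 85.2, 114.6 and 75.4 CPM in KO_CTR and at 164, 146 and 243 CPM in KO_4OI. It rose (log2 fold change 1.01, SE 0.22, adjusted p = 0.00451), and KO_4OI replicate 3, a library with Xist reads, was the highest. Leaving out any library in turn gave 0.72 to 0.88 for C3ar1 and 0.76 to 1.16 for C5ar1, all past the threshold.

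Cfp (ENSMUSG00000001128, X chromosome, 20925454 to 20931555, minus strand) encodes properdin, the positive regulator of the alternative pathway. It was at 474, 611 and 464 CPM in KO_CTR and at 686, 637 and 738 CPM in KO_4OI. No treated library fell within the untreated range, but the difference did not pass (log2 fold change 0.41, 95% interval 0.09 to 0.73, adjusted p = 0.0573). It passed without KO_CTR replicate 2 (0.52, adjusted p = 0.0150) and without WT_CTR replicate 3, which enters through the shared estimate of spread (0.40, adjusted p = 0.0458).

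**Figure D3:**
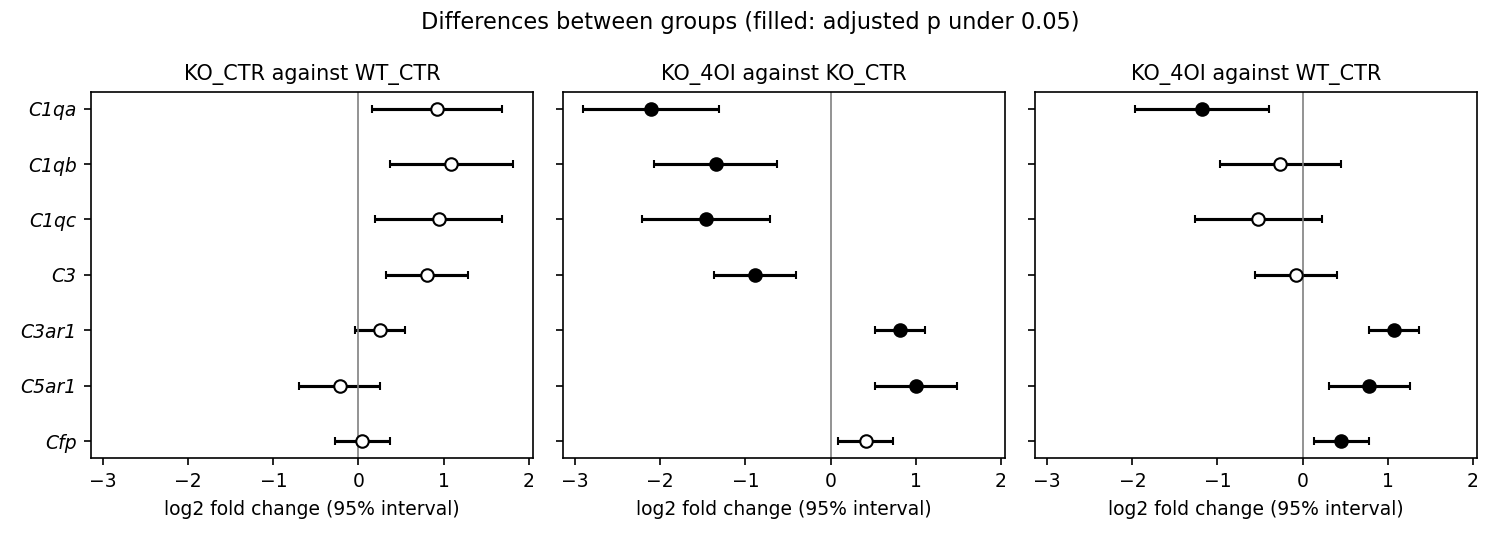
Log2 fold change (horizontal axis) of the 7 genes in each comparison with its 95% interval from edgeR's quasi-likelihood fit; filled points passed an adjusted p of 0.05. No gene passed in KO_CTR against WT_CTR, 6 passed in KO_4OI against KO_CTR and 4 in KO_4OI against WT_CTR.

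In KO_CTR against WT_CTR, which sets the Acod1 KO label against WT without treatment, 0 of the 7 genes passed in edgeR, where 0.519% of all genes did (0.470% higher and 0.0491% lower). At an unadjusted p under 0.05 there were 4, the C1q chains and C3, where 17.8% of all genes lay. DESeq2 called 2 (C1qb and C3) and limma-trend 0, and edgeR without a low-count filter called 4. Over all genes DESeq2 called 629, limma-trend 58 and edgeR without the filter 879, against 74 with it. C1qa was at 18.4, 15.2 and 33.2 CPM in WT_CTR, C1qb at 40.8, 39.8 and 75.0 CPM, C1qc at 26.0, 27.6 and 46.8 CPM and C3 at 41.9, 35.2 and 50.6 CPM. WT_CTR replicate 3 was the highest of its group for all 4, and its C1q values lay beside those of KO_CTR replicates 1 and 3. The libraries of the groups overlapped for C1qa and C1qc and did not for C1qb and C3.

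The log2 fold changes were 0.93 for C1qa (SE 0.36, adjusted p = 0.210), 1.09 for C1qb (SE 0.33, adjusted p = 0.133), 0.94 for C1qc (SE 0.34, adjusted p = 0.190) and 0.81 for C3 (SE 0.22, adjusted p = 0.109). Without KO_CTR replicate 2 they were 0.46, 0.61, 0.39 and 0.52. Without WT_CTR replicate 3 they were 1.38, 1.51, 1.31 and 1.00, and C1qb passed (adjusted p = 0.0476). The values therefore turned on these libraries. C3ar1 was at 82.2, 76.6 and 75.3 CPM in WT_CTR, below every KO_CTR library (log2 fold change 0.25, 95% interval -0.04 to 0.54). C5ar1 was at 114, 81.8 and 125 CPM (-0.22, 95% interval -0.70 to 0.26) and Cfp at 436, 488 and 578 CPM (0.04, 95% interval -0.28 to 0.37), and both overlapped with KO_CTR. In all, 3 of the 7 genes did not overlap between the groups, where 19.7% of all genes did not.

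KO_4OI against WT_CTR joins label and treatment and uses the same KO_4OI libraries as above. C1qa was lower and C3ar1, C5ar1 and Cfp were higher, 4 of 7 genes in all, where 24.3% of all genes passed (12.1% higher and 12.2% lower). The same 4 were those with an unadjusted p under 0.05 (34.4% of all genes) and those whose libraries did not overlap (41.9% of all genes). C1qa fell (log2 fold change -1.18, SE 0.36, adjusted p = 0.0299). It no longer passed without WT_CTR replicate 3 (-0.73, adjusted p = 0.170) and without KO_4OI replicate 1 or 2 (adjusted p = 0.127 and 0.0782). C1qb (-0.26, 95% interval -0.97 to 0.45), C1qc (-0.52, -1.26 to 0.23) and C3 (-0.08, -0.56 to 0.40) did not pass, and their KO_4OI libraries overlapped with WT_CTR.

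C3ar1 rose against WT_CTR (log2 fold change 1.07, SE 0.14, adjusted p = 7.56e-05) under every alternative run. C5ar1 rose (0.79, SE 0.22, adjusted p = 0.0197), and its log2 fold change stayed positive in every run. Its call was lost without WT_CTR replicate 2 (0.62, adjusted p = 0.0991) and without KO_4OI replicate 3 (adjusted p = 0.0931). It was also lost without both, which are the libraries with Xist reads (0.38, adjusted p = 0.303). Cfp, an X-linked gene, rose (0.46, SE 0.15, adjusted p = 0.0401). Sex was not given by the labels and was set here by Xist reads. With sex as a covariate or the replicate number as a block the log2 fold change hardly moved (0.45 and 0.46), but the adjusted p was above 0.05 (0.0630 and 0.0669). The call was also lost without the Xist libraries (0.38, adjusted p = 0.243) and without WT_CTR replicate 1 or 2 or KO_4OI replicate 1, 2 or 3 (adjusted p = 0.0548 to 0.177).

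The wider complement system was read from a list of 53 further genes, of which 24 had enough reads to be tested. The other 29 had at most 20 reads in any library, and 9 of them had none. In KO_4OI against KO_CTR 7 of the 24 rose and 5 fell, with a median log2 fold change of -0.27 beside 0.02 over all genes tested, of which 27.3% passed. In KO_4OI against WT_CTR 8 rose and 4 fell (median 0.01), beside 24.3% of all genes that passed (median -0.03). In KO_CTR against WT_CTR 1 rose, Itgax, and 0 fell (median 0.15), beside 0.519% of all genes (median -0.03).

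Among complement receptors, C3ar1 and C5ar1 included, 7 of 11 tested rose and 1 fell with 4-OI, where 13.0% of all genes tested rose and 14.2% fell. Itgam and Itgb2 encode the chains of complement receptor 3, an integrin that binds C3 fragments. Itgam was at 177, 159 and 208 CPM in KO_CTR and at 305, 399 and 346 CPM in KO_4OI (log2 fold change 0.95, SE 0.15, adjusted p = 0.000384). Itgb2 was at 555, 673 and 533 CPM and at 1049, 1061 and 1155 CPM (0.89, SE 0.13, adjusted p = 0.00024). The treated libraries of both genes lay far above the untreated ones.

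Itgax, whose product pairs with that of Itgb2 as complement receptor 4, rose against KO_CTR (0.50, adjusted p = 0.0247), and KO_CTR exceeded WT_CTR (0.87, adjusted p = 0.0290), at 26.9 to 34.4 against 15.2 to 17.8 CPM. No gene of the wider list, Itgax included, passed in that comparison without WT_CTR replicate 1 or 2, KO_CTR replicate 1 or 3 or KO_4OI replicate 1, with the replicate block or with sex as a covariate. Cd93, first described as a C1q receptor, was at 92.1 to 94.3 CPM in KO_CTR and at 176 to 209 CPM in KO_4OI (1.00, adjusted p = 8.07e-05). C5ar2, the second receptor for C5a, rose with C5ar1 from a low level (8.20 against 4.04 CPM, log2 fold change 1.03, adjusted p = 0.0109). Scarf1, a scavenger receptor that binds C1q on dying cells, fell (-1.08, adjusted p = 0.00353). Calr and C1qbp, which encode C1q-binding proteins with other main functions inside the cell, had log2 fold changes of -0.06 and -0.31 and did not pass.

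Of the 3 tested genes listed under the lectin pathway 1 rose and 1 fell, beside 13.0% and 14.2% of all genes. Fcna, the ficolin A gene, was at 27.9, 40.4 and 35.7 CPM in KO_CTR and at 13.4, 14.6 and 18.2 CPM in KO_4OI (log2 fold change -1.17, adjusted p = 0.000444). Fcnb, the ficolin B gene, was at a mean of 8.89 CPM in KO_CTR and 6.32 in KO_4OI and did not pass (-0.49, adjusted p = 0.142). Colec12, which encodes a membrane collectin, was at 9.92, 7.66 and 10.7 CPM and at 33.7, 50.1 and 45.6 CPM (2.19, adjusted p = 8.39e-06). Among regulators 0 of 8 tested rose and 3 fell, beside 14.2% of all genes that fell. Cd59a, which encodes a membrane inhibitor of the terminal attack complex, was at 76.9, 56.5 and 99.5 CPM in KO_CTR and at 30.0, 31.3 and 35.7 CPM in KO_4OI (-1.26, adjusted p = 0.000379). Cr1l, the mouse regulator Crry, was at 65.3 to 80.2 and 72.0 to 85.3 CPM (0.13, adjusted p = 0.540). Of the terminal components only C8g could be tested. Hc, the mouse C5 gene, had 1 read over all 9 libraries, and Cfb and Cfd, the factor B and factor D genes, had at most 5 and 2 reads in a library.

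**Figure D4:**
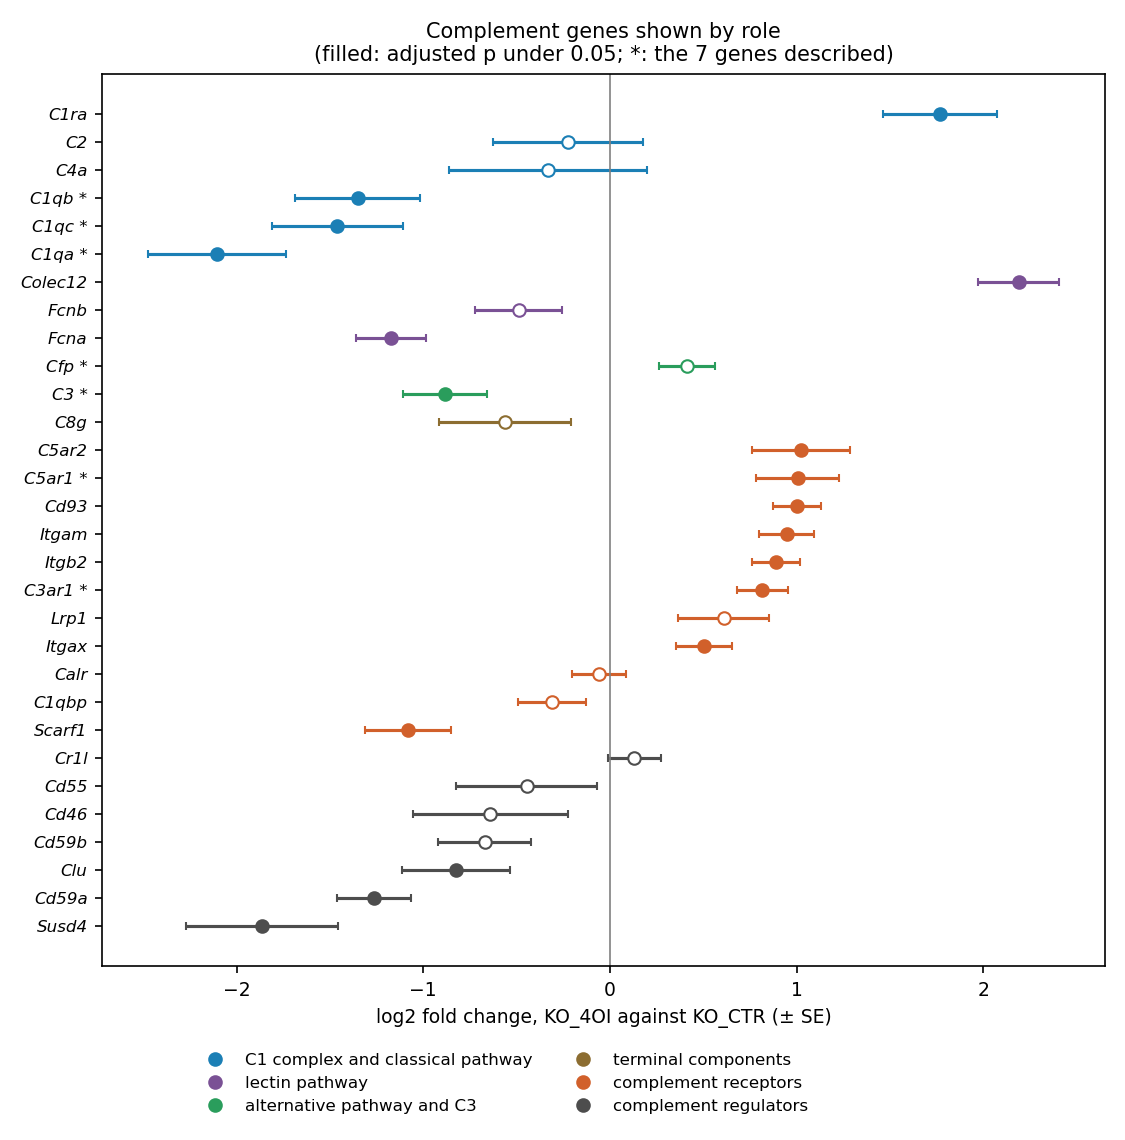
Log2 fold change (horizontal axis, with its SE) in KO_4OI against KO_CTR of the complement genes reported here that had enough reads, grouped by role; filled points passed an adjusted p of 0.05 and asterisks mark the 7 genes described. The receptor genes lie mostly to the right, with 7 that rose, and the C1q genes, C3 and 3 regulators fell.

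Marker lists of cell types that can hold these transcripts moved with some of the results. Their counts in KO_4OI against KO_CTR stand beside 27.3% of all genes that passed. Of 11 dendritic cell markers, 9 fell in KO_4OI against KO_CTR, among them the class II genes H2-Aa and H2-Ab1, and in KO_CTR against WT_CTR 0 of 11 passed in edgeR (8 at an unadjusted p under 0.05, where 17.8% of all genes lay). Their summed level was 411 to 745 CPM in WT_CTR, 838 to 1474 in KO_CTR and 256 to 285 in KO_4OI. No marker was at 0 in any group, but 2 were under 1 CPM in WT_CTR, 2 in KO_CTR and 4 in KO_4OI. Most of the sum came from Cd74, H2-Aa and H2-Ab1, at means of 685, 182 and 158 CPM in KO_CTR. Of 13 macrophage and monocyte markers 2 rose (Adgre1 and Marco) and 3 fell (Csf1r, Cd68 and Cx3cr1) against KO_CTR. In KO_CTR against WT_CTR 1 of the 13 rose in edgeR (Mertk, adjusted p = 0.0496) and 10 had an unadjusted p under 0.05. Their median log2 fold change was 0.57, in the comparison where the C1q genes had 0.93 to 1.09. Medians in the same comparison were 0.88 for the dendritic cell, 0.92 for the B cell, 0.28 for the neutrophil and 0.09 for the osteoclast markers. All 10 osteoclast markers fell in KO_4OI against KO_CTR, and 0 of 10 passed in KO_CTR against WT_CTR. Of 10 neutrophil markers 1 rose (Mpo) in KO_4OI against KO_CTR. Their sums were 628 to 935 CPM in WT_CTR, 750 to 1192 in KO_CTR and 947 to 1191 in KO_4OI. Of 8 B cell markers 0 passed in edgeR in KO_4OI against KO_CTR (0 at an unadjusted p under 0.05). In KO_CTR against WT_CTR 0 passed (8 at an unadjusted p under 0.05). In KO_4OI against WT_CTR, where 24.3% of all genes passed, 7 of 13 macrophage and monocyte markers rose and 0 fell (median 0.82). There 4 of 10 neutrophil and 3 of 8 B cell markers rose, and 5 of 11 dendritic cell and all 10 osteoclast markers fell.

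Centred on the mean of the 9 libraries, the log2 level of the 3 C1q genes was highest in KO_CTR replicate 2 (1.66), as was that of the dendritic cell markers (0.99). By summed CPM the osteoclast (33790) and the macrophage and monocyte markers (4920) were highest in that library too. Their centred levels were not (0.58 against 0.66 in KO_CTR replicate 3, and 0.41 against 0.53 in KO_4OI replicate 2). The neutrophil and B cell sums, at 1192 and 140.3 CPM, were barely above those of KO_4OI replicate 2 (1191 and 139.3). In WT_CTR the centred level was at -0.36, -0.44 and 0.49 for C1q and at -0.39, -0.07 and 0.23 for the dendritic cell markers. The macrophage and monocyte markers were at -0.59, -0.60 and -0.31 in WT_CTR and at -0.02, 0.41 and 0.07 in KO_CTR. In KO_4OI the level was at -1.09, -0.66 and -0.39 for C1q, at -0.75, -0.55 and -0.66 for dendritic cell markers and at 0.22, 0.53 and 0.29 for macrophage and monocyte markers. The osteoclast markers were at 0.50 to 0.66 in all 6 untreated libraries. The part that these cell types have in the results was not tested.

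**Figure D5:**
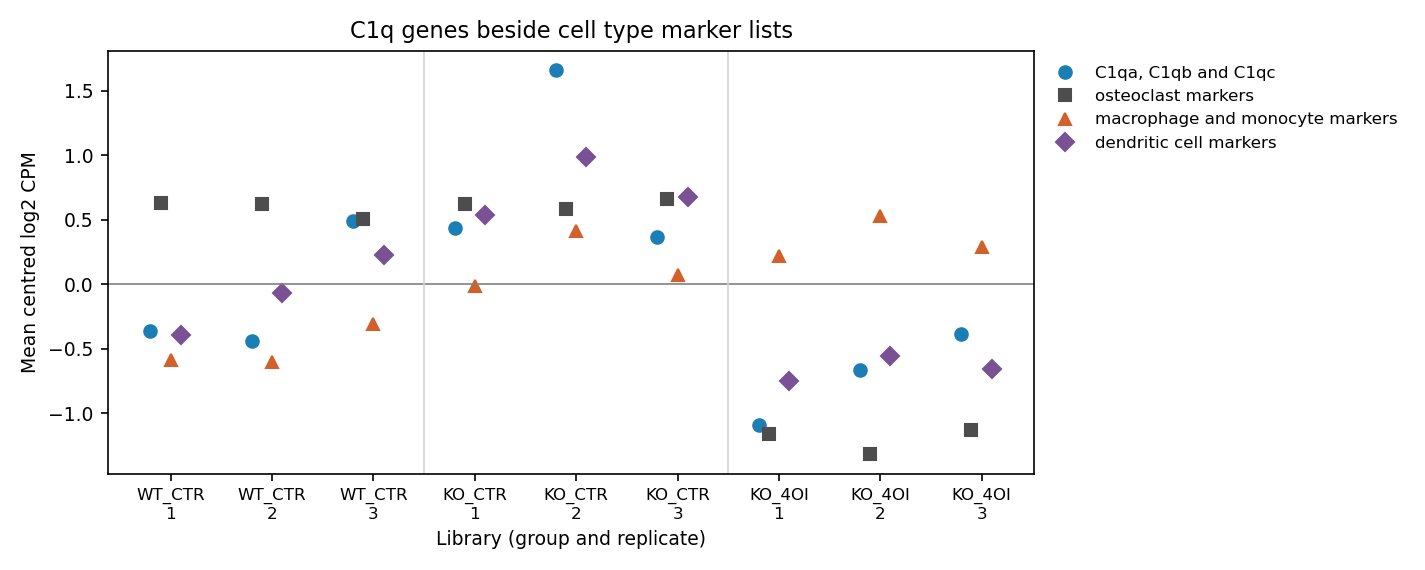
Mean log2 CPM centred over the 9 libraries (vertical axis) of the 3 C1q genes and of 3 cell type marker lists in each library (horizontal axis). C1q and the dendritic cell markers are highest in KO_CTR replicate 2 (1.66 and 0.99), and the osteoclast markers are low only in the KO_4OI libraries.

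How alike the genes were over the 9 libraries was measured as the mean absolute difference between centred log2 CPM profiles. C1qb and C1qc were the closest pair of the 7 (0.13), followed by C1qb and C3 (0.26), C3ar1 and Cfp (0.26) and C5ar1 and Cfp (0.26). C1qa lay farther from C1qb (0.38) and C1qc (0.31) than these lay from each other. Among genes of at least 10 CPM, those nearest to the mean of the C1q genes were Oas3 (0.19), Lrrc61 (0.19) and Oas1a (0.20). Nearest to C3 were Cnbd2 (0.08), Fcgrt (0.10) and Dyrk1b (0.10), and nearest to C3ar1 were Serpinb6a, Gripap1 and Mmp19 (0.06 each). C5ar1 lay nearest to Wdr62 (0.08), Adam15 (0.10) and Dok2 (0.10), and Cfp to Cdkn2d, Tspan17 and Ap2a2 (0.06 each). Cfp itself varied least of the 7 (SD 0.27 over the libraries, against 0.49 for C3ar1 and 0.82 for the C1q mean), which makes small differences easier to reach.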

How the data were processed

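Raw counts of reads for each Ensembl gene were deposited as 1 table, with 1 column per library matched to its sample by name. Per the submitters' processing notes, the authors used fastp, STAR and HTSeq 0.6.1 with mm10; the sources used here do not give the other versions, the annotation release or the strand setting. Of 54532 IDs 54409 had a symbol. Coordinates and exon lengths come from GENCODE M21 on the same build.

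Genes were kept with filterByExpr (minimum count 10), scaled with TMM and fitted over all 9 libraries with group as the factor in edgeR 4.0.16 (R 4.3.3). P-values were two-sided, adjusted by Benjamini-Hochberg over 14264 genes, with a threshold of 0.05. SE is the absolute log2 fold change over the square root of F. Log2 CPM used a prior count of 2. No replicate pair agreed within sampling noise (chi-square divided by genes, 8.04 to 99.3). The pipeline was tested on simulated data.

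The 7 genes, the gene lists and the alternatives were chosen with earlier results of these data known. Named wider genes are those past 0.05 at 5 CPM or more, at most 8 by p, plus Itgam, Itgb2, Itgax and Hc. Calr, Fcnb, Cr1l, C8g, Cfb, Cfd and the marker genes named were chosen after their values were seen. The 3 nearest profiles had to reach 10 CPM and 0.5 times the member's SD. Motifs were chosen after the results were seen. The values of 1 gene counted in the wider list are not reported here. Alternatives were RLE and upper-quartile factors, other filters, DESeq2 1.42.0, limma-trend (limma 3.58.1), the compared groups alone, replicate block, sex, and libraries left out. Sex was set by Xist reads, with more than 100 as the mark.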

Additional observations from a re-analysis of the deposited data

How the results depend on the processing

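In KO_4OI against KO_CTR the 7 genes kept their direction under all alternatives run, and the 6 calls held under each. The count of members called was 6, or 7 without WT_CTR replicate 3 or KO_CTR replicate 2. In KO_CTR against WT_CTR the count of 0 became 4 without a low-count filter and 2 by DESeq2, and ran from 0 to 1 on leaving out each library. The wider list's count of 1 became 2 without the filter and 0 with only the compared groups, with the replicate block, with sex as a covariate and without the Xist libraries, and ran from 0 to 1 on leaving out each library. In KO_4OI against WT_CTR the count of 4 became 2 without the Xist libraries and 3 with the replicate block or with sex as a covariate. It ran from 2 to 4 on leaving out each library. The cause was not tested. Uncalled log2 fold changes changed sign on leaving out each library, for Cfp in KO_CTR against WT_CTR (-0.048 without WT_CTR replicate 1, -0.038 without KO_CTR replicate 2, up to 0.21) and in KO_4OI against WT_CTR for C1qb (-0.42 to 0.14) and C3 (-0.20 to 0.10), both above 0 without WT_CTR replicate 3. Levels moved by less than 1 SD with RLE or upper-quartile factors. Same-numbered libraries did not deviate together (correlations of -0.41 to 0.32), so the numbers were not taken as pairs. Apart from Cfp in KO_4OI against WT_CTR, the block changed no member's call. The lowest library of C1qa held 184 reads, so counting error was small beside the spread between libraries.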

Other observations

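The complement genes given here were picked after their values were seen. Of these, 3 below 5 CPM changed in KO_4OI against KO_CTR. C1ra, the gene of a C1 protease that acts with C1q, rose where the C1q genes fell, from 0.694, 1.51 and 0.723 CPM in KO_CTR to 2.93, 3.55 and 3.37 CPM in KO_4OI (edgeR log2 fold change 1.77, SE 0.31, adjusted p = 0.000807). It also exceeded WT_CTR (2.35, adjusted p = 0.000120). Its partner C1s1 had at most 5 reads in any library. Susd4, a complement inhibitor gene, fell to 0.261 from 0.952 CPM (-1.86, adjusted p = 0.00398), and Clu, the clusterin gene, to 2.19 from 3.90 CPM (-0.82, adjusted p = 0.0479). Lrp1 and C1qbp passed in KO_4OI against WT_CTR, which differs in both label and treatment, and not against KO_CTR. Lrp1, a large uptake receptor, was at 662, 598 and 881 CPM in KO_4OI and at 421, 332 and 522 CPM in WT_CTR (0.75, adjusted p = 0.0394), and had 0.61 against KO_CTR (adjusted p = 0.0815). C1qbp was lower than in WT_CTR (-0.70, adjusted p = 0.0117) and had -0.31 against KO_CTR (adjusted p = 0.229).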
